A study of Mus musculus with 12 samples.

Results

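The transcriptome described here is that of resident peritoneal macrophages that received no lipopolysaccharide and were kept in HEPES-buffered medium, and its members are the 3 libraries of that group among the 12 of the series. The macrophages came from C57BL/6 mice and were held for 24 h in basic DMEM before total RNA was taken with Trizol and made into libraries with an NEBNext Ultra kit. The design text gives pH 6.8 and 7.4 beside MOPS and HEPES in that order, and no label ties a pH to the HEPES dishes otherwise. The other 9 libraries (MOPS, and either buffer followed by 10 ng/ml lipopolysaccharide for 2 h) were not used, so every value below is a level within 1 group and not a difference between groups. The labels give neither age nor sex of the mice and do not say whether replicates 4, 5 and 6 came from separate animals or dishes. The SD thus measures the spread between libraries, which may be technical.

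Resident peritoneal macrophages are phagocytes that patrol the fluid of the abdominal cavity, clear dying cells and particles from it and digest them in lysosomes. The larger and more abundant kind is known for high F4/80 (Adgre1) and for the transcription factor Gata6, which retinoic acid from the surrounding tissue keeps on. A smaller kind carries MHC class II and shares genes with dendritic cells. B cells, T cells, mast cells and neutrophils also occur in peritoneal fluid, and cells that do not stick to the dish are usually lost on culture.

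The 3 libraries held 24669239, 24045183 and 22433773 counts in replicates 4, 5 and 6, spread over a table of 54532 genes. A count fell on 20548, 20274 and 20453 genes in these libraries. Levels are given as the authors' FPKM, which are per length and per library size, and genes are compared with each other on this scale only. Between any 2 of the libraries the log2 FPKM correlated with a Pearson r of 0.994 across genes, which are not independent replicates, and the chi-square of their counts per degree of freedom was 3.94 for replicates 4 and 5, 4.0 for replicates 4 and 6 and 3.11 for replicates 5 and 6. No 2 libraries agreed within counting noise, so none was taken as a repeat of another, which does not show that they are separate animals or cultures. Replicate 4 was the library least like the others by this measure, by a small margin.

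The 4 markers that define these cells were all counted, at very unequal levels. Adgre1, which encodes F4/80, had 271, 262 and 257 FPKM in replicates 4, 5 and 6, a mean of 263 ± 7.08 FPKM (SD, n = 3, as for every ± below). Prg4, which encodes the lubricating glycoprotein lubricin, had 32.2, 31.7 and 31.3 FPKM. Its span overlaps Tpr on the opposite strand, a gene with a mean of 5429 counts against 3958 counts for Prg4, and whether the counting used strand is not given in the sources used here. Icam2, an adhesion molecule of large peritoneal macrophages, had 6.32, 6.11 and 6.52 FPKM. Gata6, the factor that sets their identity, had 5.39, 5.27 and 5.17 FPKM and was the 5980th gene in order of level. All 4 markers were thus found in every library, with levels that differed little between libraries.

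Lyz2, the lysozyme of macrophages and neutrophils that cuts bacterial cell walls, was the most abundant transcript. The gene (ENSMUSG00000069516, chr10:117277331-117282321 in mm10, minus strand) had 16004, 16903 and 15983 FPKM, a mean of 16296 ± 525 FPKM, and alone held 6.15 ± 0.114% of all FPKM in the libraries. The 150 bases before its start are shown because they precede the most abundant transcript. They lie at chr10:117282273-117282422 on the minus strand of GRCm38.p6, as RefSeq places the start, which is 49 bases from the start in the deposited table, and they hold none of the motifs searched for further on, hence no capitals.
Lyz2: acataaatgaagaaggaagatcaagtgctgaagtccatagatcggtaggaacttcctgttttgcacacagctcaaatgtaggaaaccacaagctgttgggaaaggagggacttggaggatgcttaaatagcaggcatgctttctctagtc

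Behind Lyz2 came Fth1, the heavy chain of the iron store ferritin, with 11671, 12085 and 11497 FPKM. Psap, the precursor of the saposins that help lysosomal enzymes break down sphingolipids, had 6571, 6749 and 6591 FPKM. Apoe, the apolipoprotein with which macrophages export cholesterol, had 6358, 6291 and 6349.8 FPKM. The 4 genes kept this order in all 3 libraries, and together they held 15.5% of all FPKM.

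The light ferritin chain Ftl1 followed at 3255 ± 166 FPKM and the lysosomal aspartic protease cathepsin D (Ctsd) at 2903 ± 47.0 FPKM. The mitochondrial gene mt-Co1, a catalytic subunit of cytochrome c oxidase, averaged 2560.0 ± 112 FPKM. After these came B2m, the light chain of MHC class I, at 1839 ± 42.9 FPKM, the elongation factor Eef1a1 at 1758 ± 37.0 FPKM and the cysteine protease cathepsin B (Ctsb) at 1719 ± 28.2 FPKM. The remaining 10 of the first 20 were also at or over 1000 FPKM. They were Ctss (cathepsin S, 1564 FPKM), Tyrobp (the signalling adaptor DAP12, 1463 FPKM), Cd68 (a lysosomal membrane protein of macrophages, 1218 FPKM), Wfdc17 (1214 FPKM), the ribosomal protein gene Rplp1 (1207 FPKM), the class I gene H2-D1 (1154 FPKM), mt-Nd1 (1053 FPKM), Actb (1022 FPKM), Lyz1 (1021 FPKM) and mt-Cytb (1001 FPKM). Ranks 21 to 25 went to galectin 3 (Lgals3, 923 FPKM), the pore-forming protein perforin-2 (Mpeg1, 885 FPKM), thymosin beta 4 (Tmsb4x, 784 FPKM), peroxiredoxin 1 (Prdx1, 748 FPKM) and the complement subunit C1qa (739.6 FPKM).

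The library was thus dominated by a small number of genes. The 20 genes at or over 1000 FPKM held 25.3% of all FPKM and 13.5% of all counts. The 10 highest genes held 20.8 ± 0.161% of all FPKM, the 100 highest 39.2 ± 0.234% and the 1000 highest 68.4 ± 0.262%. Among the 100 highest, 17 encode proteins of the cytosolic ribosome (of 83 such genes), 11 belong to the pan-macrophage list (of 25), 10 to the lysosomal list (of 49) and 7 are mitochondrially encoded (of 13). Of the 100, 69 belong to at least 1 of the 37 gene lists and 23 gene families counted, whose genes make up the rest of this description. These lists and families hold 3884 of the 54532 genes in the table. They were chosen with earlier results of these data known, so part of this overlap is built in. Without the division by length, cathepsin B, a long transcript of 6051 bases in the table, stood at rank 4 in place of rank 10, and thrombospondin 1 (Thbs1) at rank 10 in place of rank 33. Lyz2 stayed first on that scale, followed by Psap and Apoe.

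**Figure D1:**
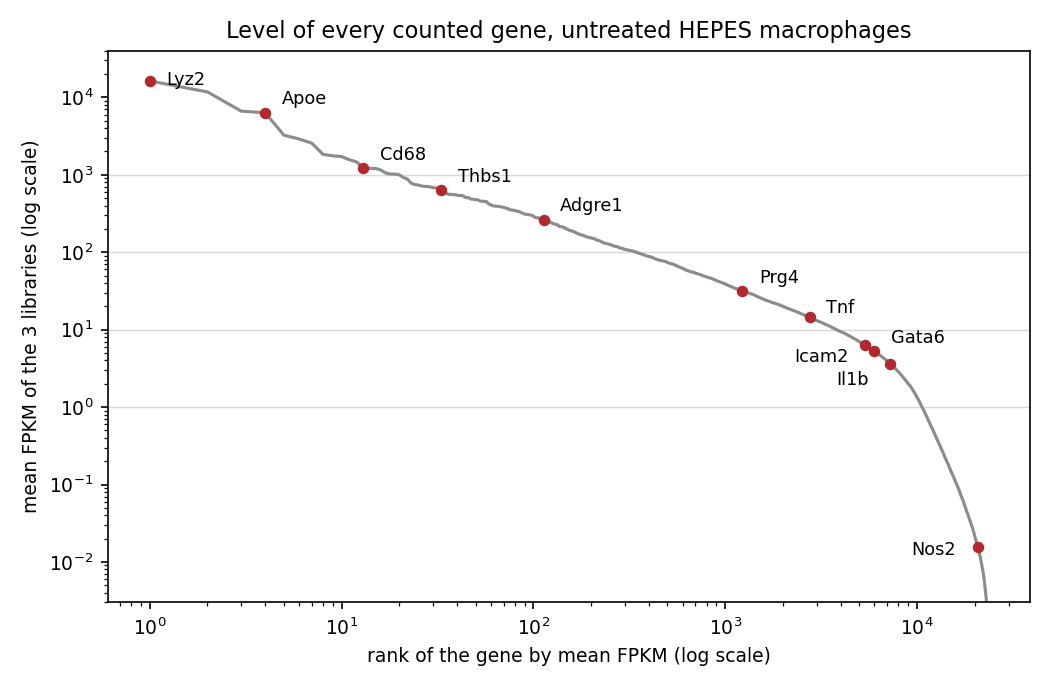
Mean FPKM of the 3 libraries for each counted gene (vertical axis, log scale) against the gene's rank (horizontal axis, log scale), with named genes marked. Lyz2 leads at 16296 FPKM, 20 genes reach 1000 FPKM, 346 reach 100 FPKM and 10623 reach 1 FPKM.

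At the other end, 31134 of the 54532 genes in the table (57.1%) had 0 counts in all 3 libraries. Another 7288 genes were counted but averaged under 0.1 FPKM, and 5487 lay between 0.1 and 1 FPKM. At or over 1 FPKM, the level used here to speak of a gene as expressed, were 10623 genes (19.5%), of which 3796 reached 10 FPKM, 346 reached 100 FPKM and 20 reached 1000 FPKM. The median of the genes at or over 1 FPKM was 6.40 FPKM. Of the 22046 protein-coding genes, 9470 (43.0%) reached 1 FPKM and 6854 (31.1%) had 0 counts, and their median was 0.243 FPKM. These shares are the background against which each list below can be read.

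Genes of the pan-macrophage and large peritoneal macrophage lists were nearly all expressed. Both lists were chosen with earlier results of these data known, so this is partly built in. All 25 genes of the pan-macrophage list reached 1 FPKM, 14 of them 100 FPKM, with a median of 122 FPKM, and together they held 9.36 ± 0.109% of all FPKM. Besides Lyz2, Tyrobp, Cd68, Ctss and Mpeg1 these included the Fc receptor gamma chain (Fcer1g, 390.1 FPKM) and the NADPH oxidase subunit gp91phox (Cybb, 325 FPKM). The lipopolysaccharide co-receptor Cd14 had 306, 328 and 329.9 FPKM. The receptor for the survival factor CSF1 (Csf1r) had 309.6, 315 and 295 FPKM. The lipid receptor Trem2 averaged 129 FPKM and the integrin chain CD11b (Itgam) 49.2 FPKM. The lowest of the list were the receptor tyrosine kinase Axl (7.68 FPKM), the sialic acid receptor CD169 (Siglec1, 6.85 FPKM) and Iba1 (Aif1, 5.85 FPKM).

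Of 26 genes on the list of large peritoneal macrophages, 23 reached 1 FPKM and 9 reached 100 FPKM. The highest was Thbs1, a secreted matrix glycoprotein, with 677, 609 and 615 FPKM. The acute phase protein Saa3 had 512, 657 and 499 FPKM and was highest in replicate 5. The tetraspanin Cd9 averaged 380.4 ± 19.3 FPKM, complement C4b 374 ± 15.3 FPKM and fibronectin (Fn1) 283 ± 12.3 FPKM. Peritoneal macrophages are known to make clotting factors, and factor X (F10) averaged 83.4 FPKM and factor V (F5) 49.3 FPKM. The lipid-binding protein Cd5l (AIM) averaged 121 FPKM, the lipoxygenase Alox15 108 FPKM, the complement receptor Vsig4 63.6 FPKM and the phosphatidylserine receptor Timd4 23.5 FPKM. Only Garnl3 (0.548 FPKM), the retinoic acid receptor Rarb (0.377 FPKM) and Wt1 (0.0150 FPKM) stayed under 1 FPKM.

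Markers of other cells were read next. In bulk libraries such as these, fewer cells of a type and less RNA per cell cannot be told apart. Of the 19 genes of small peritoneal macrophages and dendritic cells, 10 reached 1 FPKM, with a median of 2.94 FPKM. The MHC class II invariant chain Cd74 had 205, 249 and 234 FPKM. The class II chains H2-Eb1 and H2-Aa averaged 94.2 and 65.7 FPKM, and all 3 of these genes were lowest in replicate 4. The resistin-like protein Retnla averaged 49.1 FPKM, CD11c (Itgax) 29.6 FPKM and the lectin Cd209a 18.7 FPKM. The monocyte chemokine receptor Ccr2 (0.520 FPKM) and the hyaluronan receptor Lyve1 (0.563 FPKM) were under 1 FPKM.

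B cell transcripts were low and uneven between the libraries. Of 17 B cell genes 11 reached 1 FPKM, with a median of 2.34 FPKM, and their summed level was 65.4, 83.2 and 114 FPKM in replicates 4, 5 and 6. The immunoglobulin M heavy chain (Ighm) had 21.1, 25.3 and 35.8 FPKM and the kappa light chain (Igkc) 15.4, 21.4 and 26.8 FPKM. The B cell receptor signalling chain Cd79a had 7.24, 10.3 and 16.3 FPKM. Replicate 6 was highest for each of these and also for Cd79b (4.92, 7.49 and 9.23 FPKM) and Ms4a1 (1.89, 2.09 and 3.04 FPKM), so these 5 genes ordered the libraries alike. The part of B cell RNA in other levels was not tested. The pre-B gene Vpreb3 had 0 counts.

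The other cell types left little trace. Of 20 T and NK cell genes 2 reached 1 FPKM, the interleukin 7 receptor Il7r (13.3 FPKM) and the adaptor Lat (1.77 FPKM). The defining T cell receptor chains Cd3e and Cd3d were at 0.0203 and 0.0309 FPKM, and Gzma, Ncr1 and Prf1 had 0 counts. Of 12 neutrophil genes 3 reached 1 FPKM. They were the G-CSF receptor Csf3r (77.4 FPKM), the collagenase Mmp8 (36.9 FPKM) and S100a8, which had 10.1, 10.2 and 7.37 FPKM. Its usual partner S100a9 had 0 counts, which allows at most 0.0657 FPKM at the limit of 3 counts over the 3 libraries, a limit that covers counting error only. The neutrophil markers Ly6g and Retnlg had 0 counts too, with limits of 0.0364 and 0.0578 FPKM. None of the 50-base words of S100a8 or S100a9 transcripts occurs in the transcripts of another gene.

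Of 14 genes of mast cells, eosinophils and basophils 4 reached 1 FPKM, with a median of 0.289 FPKM. The highest were 3 mast cell proteases. Tpsb2, a mast cell tryptase, averaged 7.13 ± 0.407 FPKM, the chymase Cma1 4.06 ± 0.335 FPKM and carboxypeptidase A3 (Cpa3) 3.55 ± 0.231 FPKM, while Mcpt8 of basophils and Prg2 of eosinophils had 0 counts. The mast cell protease Mcpt4 averaged 0.429 FPKM, the IgE receptor chain Fcer1a 0.278 FPKM and the stem cell factor receptor Kit 0.219 FPKM. Of 20 mesothelial, stromal and endothelial genes only von Willebrand factor (Vwf, 2.78 FPKM) reached 1 FPKM, and Cldn5 and Lum had 0 counts. Among 11 erythroid and platelet genes only platelet factor 4 (Pf4), a chemokine also known from macrophages, reached 1 FPKM, with 149, 149.7 and 139.6 FPKM. The platelet gene Ppbp averaged 0.986 FPKM, just under that level. The erythroid gene Slc4a1 and the platelet gene Gp9 had 0 counts.

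Of 22 genes known from macrophages of other tissues, 10 reached 1 FPKM, with a median of 0.481 FPKM. The scavenger receptor Marco, best known from alveolar and marginal zone macrophages, was the highest of them with 105, 125 and 104 FPKM. The microglial factor Sall1, the Kupffer cell lectin Clec4f, the alveolar macrophage gene Car4 and Krt79 had 0 counts in all 3 libraries.

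**Figure D2:**
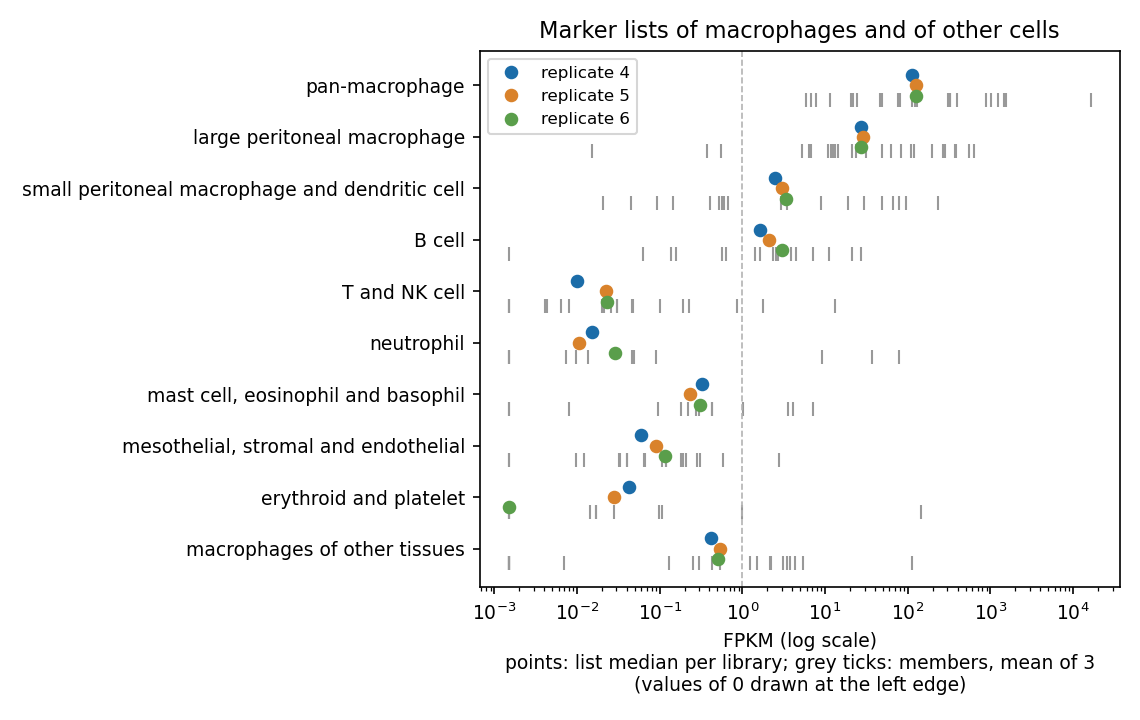
Marker lists of macrophages and of other cells (rows) by FPKM on a log scale. Coloured points are the list median in each of replicates 4, 5 and 6 and grey ticks the members by their mean. The pan-macrophage median of 122 FPKM and the large peritoneal macrophage median of 27.6 FPKM stand right of those of the other cell types, the highest of which is 2.94 FPKM.

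After the pan-macrophage list, with which it shares members, the lysosomal list held the largest share of FPKM of the 37 lists. Of 49 genes for lysosomal hydrolases and their partners, 48 reached 1 FPKM and 18 reached 100 FPKM, and the list held 6.96 ± 0.0253% of all FPKM. Psap, cathepsins D, B and S and the membrane glycoprotein Lamp1 (707 ± 8.90 FPKM) led it. Cathepsin Z (Ctsz) averaged 697 FPKM, progranulin (Grn), which aids protease function in lysosomes, 539 FPKM and the asparagine endopeptidase legumain (Lgmn) 487 FPKM. Lysosomal acid lipase (Lipa), which frees cholesterol from lipoproteins, averaged 456 FPKM and the hexosaminidase subunit Hexa 453 FPKM. The single member under 1 FPKM was cathepsin W (Ctsw, 0.0940 FPKM), known from cytotoxic lymphocytes.

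The vacuolar ATPase is the proton pump that acidifies lysosomes. Of its 24 genes 19 reached 1 FPKM, with a median of 62.2 FPKM. The highest were Atp6v1g1 (168 FPKM), Atp6v1a (143 FPKM) and Atp6v0b (130.0 FPKM). Of the d subunit genes, Atp6v0d2, known from osteoclasts and macrophages, averaged 128 ± 2.94 FPKM and the ubiquitous Atp6v0d1 101 ± 1.68 FPKM. Of the a subunit genes, Tcirg1 (a3) averaged 127 FPKM. The kidney isoforms Atp6v0a4, Atp6v1b1 and Atp6v1g3 had 0 counts.

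The promoters of lysosomal genes are shown for the E-box CACGTG, which factors of the TFEB and USF families are known to bind. RefSeq promoters of the GRCm38.p6 build were matched by symbol, on the same chromosome and strand, to 20479 genes of the table. CACGTG occurred in the 250 bases before the start of 6.43% of these genes and of 10 of 40 lysosomal genes (25%). Its share varied with level. It was 3.95% for protein-coding genes with 0 counts, 10.5% between 10 and 100 FPKM and 7.79% at or over 100 FPKM. Among the other lists it was highest for immediate-early genes (21.1%), and pan-macrophage genes had 0%. The word reads the same on both strands. The 150 bases before Ctsd lie at chr7:142387828-142387977 on the minus strand and hold it once, 98 bases before a start that is 211 bases from the table's. Those before Lamp1 lie at chr8:13159011-13159160 on the plus strand and hold it 4 times, at 61, 45, 28 and 15 bases before the start. Capitals mark CACGTG and, once in Lamp1, the interferon-response word (GAAA, any 2 bases and GAAA again) on the opposite strand, 135 bases before the start. A match is a description of letters and not a site.
Ctsd: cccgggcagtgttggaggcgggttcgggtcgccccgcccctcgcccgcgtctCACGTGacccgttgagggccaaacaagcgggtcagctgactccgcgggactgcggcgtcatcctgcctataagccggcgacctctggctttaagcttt
Lamp1: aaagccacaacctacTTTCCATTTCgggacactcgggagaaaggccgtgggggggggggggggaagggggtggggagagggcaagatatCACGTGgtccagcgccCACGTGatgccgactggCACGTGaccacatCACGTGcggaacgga

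Iron and lipid genes supplied several of the highest transcripts. The 20 iron and heme genes held 5.96% of all FPKM, nearly all of it ferritin, and 18 reached 1 FPKM. Heme oxygenase 1 (Hmox1), which opens the heme ring, averaged 277 ± 9.62 FPKM. The phagosomal metal transporter Nramp1 (Slc11a1) averaged 155 FPKM and the heme transporter Slc48a1 113 FPKM. The iron exporter ferroportin (Slc40a1) stood at 1.45, 1.35 and 1.38 FPKM, and its ligand hepcidin (Hamp) had 0 counts. The 24 lipid handling genes held 3.18% of all FPKM, with Apoe, Lipa, the fatty acid translocase Cd36 (413 FPKM), the fatty acid binding protein Fabp5 (394 FPKM), Fabp4 (174 FPKM), lipoprotein lipase (Lpl, 169 FPKM) and the lipid droplet protein Plin2 (114 FPKM) all over 100 FPKM.

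Uptake receptors were broadly expressed. Of 21 Fc receptors and C-type lectins 18 reached 1 FPKM, led by the lectin Clec4d (396 FPKM), Fcer1g, the IgG receptor Fcgr3 (352 FPKM), the beta-glucan receptor dectin-1 (Clec7a, 316 FPKM, listed in the table as a polymorphic pseudogene) and dectin-2 (Clec4n, 134 FPKM). Of 23 genes for scavenger and apoptotic cell uptake 20 reached 1 FPKM. The medians of these lists were 27.4 and 23.5 FPKM. Annexin A1 (Anxa1) averaged 125 FPKM, the endocytic receptor Lrp1 121 FPKM and the class A scavenger receptor Msr1 91.8 FPKM. Mertk, which binds dying cells through bridging proteins, averaged 45.9 ± 2.23 FPKM and exceeded its relative Axl 5.98 ± 0.215 fold in FPKM. Adgrb1 had 0 counts.

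C1qa and C1qb were the highest of the complement list, and 5 genes of the membrane attack complex had no counts. Of 28 complement genes 17 reached 1 FPKM, 7 reached 100 FPKM and 7 had 0 counts. The C1q chain C1qa had 722, 787 and 709.6 FPKM, and its partner chains C1qb and C1qc averaged 719 and 383 FPKM. The integrin chain Itgb2, part of complement receptor 3, averaged 450.4 FPKM, the C3a receptor C3ar1 152 FPKM and properdin (Cfp) 117 FPKM. Other receptors were lower, with C5ar1 at 72.5 FPKM, Cr1l at 9.32 FPKM and C5ar2 at 1.12 FPKM. C3 itself averaged 15.5 FPKM. The genes with 0 counts were those of the membrane attack complex C6, C7, C8a, C8b and C9 and the proteases Cfd and Cfi.

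Sensors of microbes had a lower median than the uptake receptors. Of 36 pattern recognition genes 32 reached 1 FPKM, with a median of 9.38 FPKM, and only Cd14 exceeded 100 FPKM. Tlr13, a sensor of bacterial ribosomal RNA, averaged 80.1 ± 1.16 FPKM, and Tlr2, which senses lipoproteins, 78.7 ± 4.64 FPKM. Tlr4, the lipopolysaccharide receptor, had 10.7, 10.6 and 9.97 FPKM. Tlr2 thus exceeded Tlr4 7.53 ± 0.330 fold in FPKM, and Tlr13 exceeded it 7.67 ± 0.202 fold. The RNA sensor Tlr7 averaged 43.4 FPKM and the inflammasome protein Nlrp3 28 FPKM. The flagellin receptor Tlr5 (0.0924 FPKM) and the DNA sensor Tlr9 (0.705 FPKM) were under 1 FPKM.

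Cytokine genes reached 1 FPKM about as often as protein-coding genes at large. Of 37 cytokine genes 15 (40.5%) did so, beside 43.0% of all protein-coding genes. Their median was 0.203 FPKM, beside 0.243 FPKM, and 8 had 0 counts. The highest were Mif (68.8 FPKM), Tgfb1 (64.6 FPKM), the macrophage growth factor Csf1 (40.6 FPKM), Tnfsf12, the gene of TWEAK (31.7 FPKM, overlapped by a read-through gene on the same strand), and Il1a (14.7 FPKM). Tnf, the main inflammatory cytokine of macrophages, had 13.3, 15.2 and 14.7 FPKM. Il1b had 2.74, 5.05 and 3.10 FPKM and Il6 0.0542, 0.422 and 0.133 FPKM, each highest in replicate 5. Il10 averaged 0.575 FPKM. No count fell on Ifnb1, Ifna4, Ifng, Il17a, Il21, Il22, Il3 or Il5. For Ifnb1, the antiviral interferon, 0 counts allow at most 0.0457 FPKM.

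Of 34 chemokine genes 15 reached 1 FPKM and 7 had 0 counts. After Pf4 came Ccl6 (120.1 FPKM), Ccl3 (102 FPKM), the eotaxin Ccl24 (85.7 FPKM) and Ccl9 (46.9 FPKM), and the neutrophil attractant Cxcl2 averaged 24.0 FPKM. Ccl8, Ccl11, Ccl19, Ccl20, Cxcl11, Cxcl15 and Xcl1 had 0 counts. The 29 genes of the type I interferon response had a median of 2.01 FPKM, and 18 reached 1 FPKM. The membrane proteins Ifitm2 (226 FPKM), Ifitm3 (177 FPKM) and Bst2 (55.5 FPKM) led. The ubiquitin-like modifier Isg15 averaged 3.97 FPKM, Ifit1 0.306 FPKM and Ifi44 0.00543 FPKM.

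Promoters of inducible genes are shown because Tnf, Il1b and Isg15 hold the searched words close to the start. The TATA word TATAAA, searched for on the coding strand between 40 and 16 bases before the start, occurred in 2.56% of all promoters, in 8 of 28 cytokine promoters (28.6%) and in 5 of 25 chemokine promoters (20%). The word GAAA followed by any 2 bases and GAAA again, the core of the interferon-stimulated response element, was searched for on both strands of 250 bases. It occurred in 2.98% of all promoters and in 10 of 22 of the interferon response list (45.5%). Overlapping matches count a promoter once. The 150 bases before Tnf lie at chr17:35202008-35202157 and those before Il1b at chr2:129371140-129371289, both on the minus strand, with TATAAA in capitals at 29 and 31 bases before the start. Those before Isg15 lie at chr4:156200819-156200968 on the minus strand, with 3 overlapping copies of that interferon-response word in capitals at 78, 72 and 66 bases before the start. At levels of 14.4, 3.63 and 3.97 FPKM none of these genes was among the 1000 highest.
Tnf: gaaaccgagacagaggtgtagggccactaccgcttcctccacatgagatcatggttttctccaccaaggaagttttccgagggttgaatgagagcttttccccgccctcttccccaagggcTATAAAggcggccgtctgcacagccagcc
Il1b: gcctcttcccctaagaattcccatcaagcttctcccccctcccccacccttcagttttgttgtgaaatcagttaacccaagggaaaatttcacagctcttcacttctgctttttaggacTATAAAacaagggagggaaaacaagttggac
Isg15: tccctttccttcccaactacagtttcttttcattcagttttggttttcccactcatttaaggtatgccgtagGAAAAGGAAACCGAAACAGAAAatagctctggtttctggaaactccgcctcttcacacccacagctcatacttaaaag

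Across protein-coding genes the letters of the promoter varied with the level, as a description over 16492 genes. The median ratio of observed to expected CpG was 0.185 for genes with 0 counts, 0.489 for counted genes under 1 FPKM, 0.754 between 1 and 10 FPKM, 0.771 between 10 and 100 FPKM and 0.654 at or over 100 FPKM. It was 0.496 for the 13 matched genes at or over 1000 FPKM. The GC box GGGCGG, on either strand, occurred in 16.6% of promoters of genes with 0 counts and in 63.7% of those between 10 and 100 FPKM. The near-start TATAAA was most frequent at the ends of the range, with 5.87% at 0 counts, 2.48% under 1 FPKM, 0.636% between 1 and 10 FPKM and 1.37% between 10 and 100 FPKM, and it stood at 4.10% at or over 100 FPKM.

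Antigen presentation was led by class I. Of 19 genes 18 reached 1 FPKM, and with B2m, H2-D1 and H2-K1 (669.7 FPKM) the list held 1.64% of all FPKM. The class II transactivator Ciita was the member under 1 FPKM, at 0.574 FPKM. H2-K1 exceeded the class II chain H2-Aa 10.2 ± 0.749 fold in FPKM.

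Metabolic genes were nearly all over 1 FPKM. Of 23 genes of glycolysis and glucose uptake 22 reached 1 FPKM. Aldolase A (Aldoa) averaged 257 ± 5.55 FPKM, pyruvate kinase (Pkm) 167 ± 3.38 FPKM, Pgam1 108 FPKM and lactate dehydrogenase A (Ldha) 88.2 ± 3.67 FPKM. Gapdh, a glycolytic enzyme often taken as a reference gene, had 2.50, 2.06 and 2.16 FPKM. Of its 50-base words 25.1% also occur in transcripts of other genes. The share was 25.8% for Pkm, 36.2% for Pgam1 and 53.9% for the phosphoglycerate kinase Pgk1 (75.9 FPKM). Words are pooled over all annotated transcripts of a gene, so the share does not give the part of its reads with several matches. The cause of the low Gapdh level was not tested. How reads with several matches were counted is not given in the sources used here.

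All 21 genes of the TCA cycle list reached 1 FPKM, with a median of 21.6 FPKM. The citrate-splitting enzyme Acly averaged 58.9 FPKM, the succinate dehydrogenase subunits Sdhd, Sdhb and Sdha 57.4, 42.8 and 39.6 FPKM, and Mdh1 46.5 FPKM. Acod1, which makes itaconate, averaged 6.66 FPKM. Of 40 nuclear genes for oxidative phosphorylation 37 reached 1 FPKM, led by Cox8a (246 FPKM), Cox6a1 (208 FPKM) and Cox4i1 (163 FPKM), while the muscle isoform Cox8b had 0 counts. Of 22 fatty acid oxidation genes 20 reached 1 FPKM, with Acadl (40.6 FPKM) and the electron carrier Etfa (31.1 FPKM) highest. Of 22 genes of cholesterol synthesis and uptake 21 reached 1 FPKM, with the sterol sensor partner Insig1 (64.9 FPKM) first.

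Some related genes with a similar task had very unequal levels and others did not, and the ratios below are of FPKM within each library. Near-equal were the monocarboxylate carriers Slc16a3 and Slc16a1, with a ratio of 0.976 ± 0.0561, the V-ATPase genes Atp6v0d1 and Atp6v0d2, with 0.788 ± 0.0185, and the nuclear receptors Ppard and Pparg, with 1.27 ± 0.0819. Actb exceeded Actg1 1.87 ± 0.0548 fold. Lyz2 exceeded Lyz1, its Paneth cell relative, 16 ± 1.15 fold. About 15.4% of the 50-base words of Lyz2 and 16.1% of those of Lyz1 are shared with another gene. Hexokinase 3 (Hk3), the isoform of white blood cells, averaged 65.1 ± 4.52 FPKM and exceeded Hk1 5.21 ± 0.38 fold and Hk2 7.93 ± 0.660 fold. The glucose transporter Slc2a1 averaged 22.1 ± 2.50 FPKM and exceeded Slc2a3 201 ± 12.4 fold. Slc2a3 itself averaged 0.111 FPKM, and with so low a divisor the SD may understate the error of that fold. Ldha exceeded Ldhb 5.05 ± 0.339 fold. The liver type carnitine transferase Cpt1a averaged 25.3 ± 1.46 FPKM, against 0.0585, 0.0304 and 0.0320 FPKM for the muscle type Cpt1b in replicates 4, 5 and 6. Fth1 exceeded Ftl1 3.62 ± 0.187 fold, and 58.4% of the words of Ftl1 are shared.

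**Figure D3:**
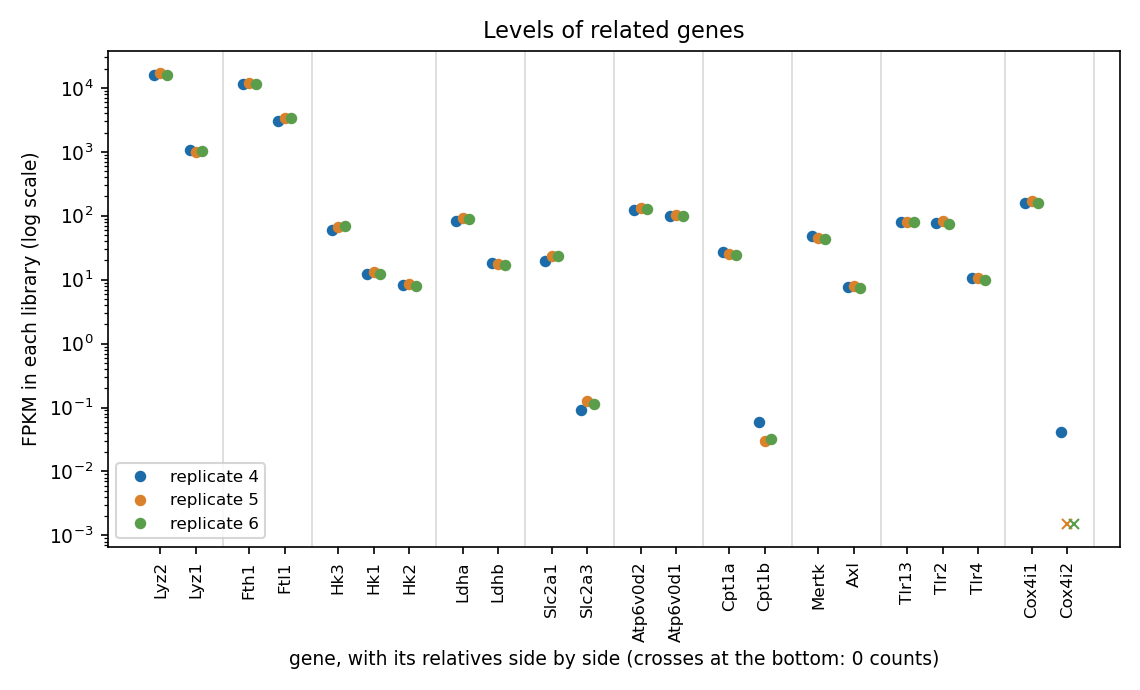
FPKM in each library (vertical axis, log scale) of related genes placed side by side, with crosses at the bottom for 0 counts. Hk3 at 65.1 FPKM stands above Hk1 at 12.5 FPKM and Hk2 at 8.22 FPKM, and Slc2a1 at 22.1 FPKM above Slc2a3 at 0.111 FPKM in all 3 libraries.

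The cytoskeleton was strongly expressed. Of 31 actin cytoskeleton genes 16 reached 100 FPKM, and Actb had 1007, 1047 and 1013 FPKM. The monomer-binding Tmsb4x averaged 784 FPKM, Actg1 547 FPKM, cofilin (Cfl1) 373 FPKM and the capping protein Capg 300.1 FPKM. The muscle actins Acta1 and Actc1 had 0 counts. Of 26 integrin genes 13 reached 1 FPKM. The leukocyte chain Itgb2 and the broadly used Itgb1 (266 FPKM) led, followed by the laminin receptor chain Itga6 (68.7 FPKM), Itgam and Itgb5 (30.8 FPKM).

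Since the study varied the pH of the medium, genes of proton sensing and acid-base transport were listed apart. Of 22 such genes 11 reached 1 FPKM, 3 had 0 counts and the median was 1.02 FPKM. The voltage-gated proton channel Hvcn1 averaged 40.4 ± 1.17 FPKM. The acid-sensing receptor Gpr65 had 20.9, 21.2 and 18.8 FPKM. It exceeded its relative Gpr132 12.1 ± 1.14 fold in FPKM, while Gpr4 averaged 0.00416 FPKM. The sodium-proton exchanger Slc9a9 averaged 6.86 FPKM and the anion exchanger Slc4a2 6.53 FPKM, with the gene Fastk overlapping it on the other strand. The ion channel Asic2, Trpv1 and the membrane carbonic anhydrase Car4 had 0 counts.

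**Figure D4:**
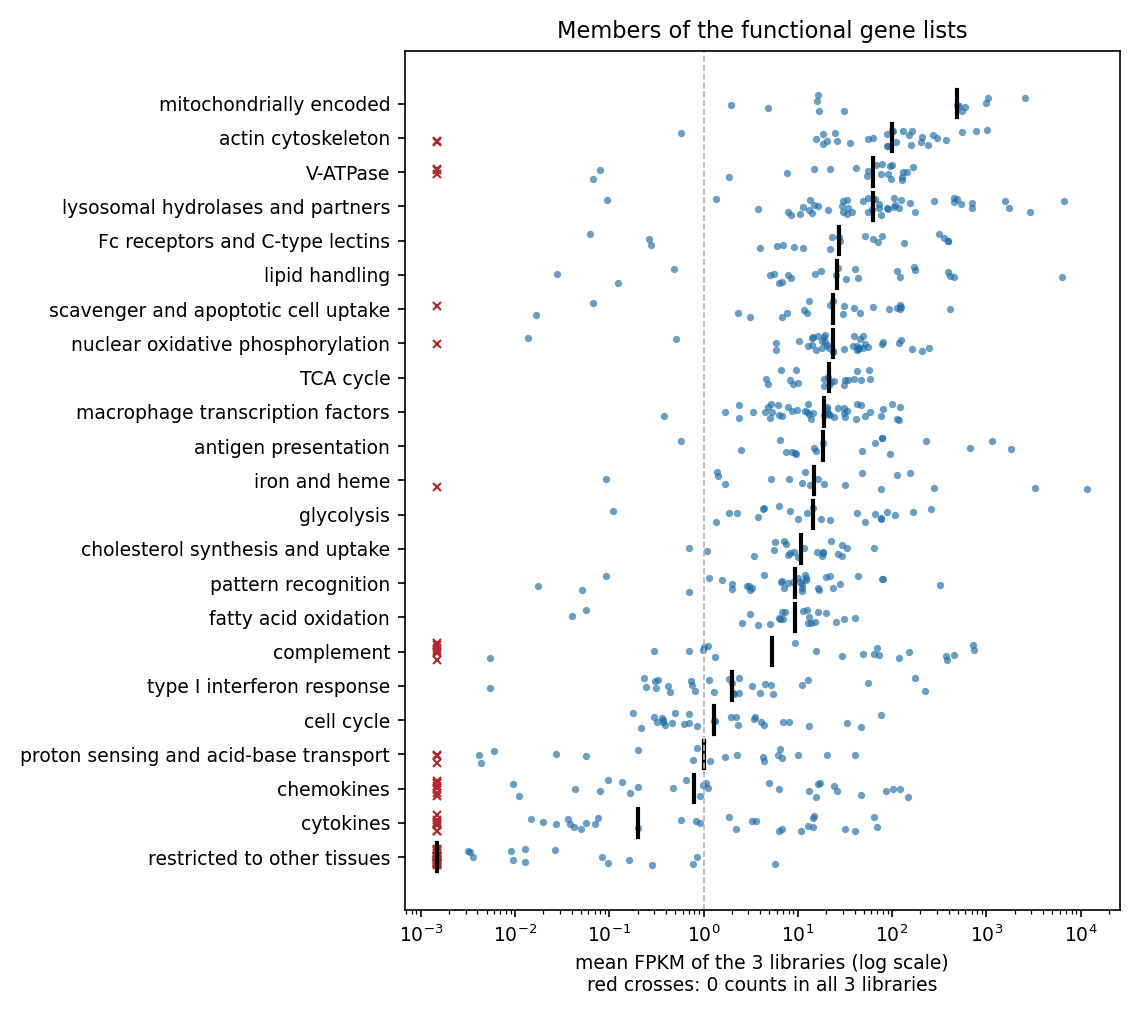
Members of the functional gene lists (rows) by mean FPKM of the 3 libraries on a log scale, with red crosses for members with 0 counts and a dashed line at 1 FPKM. Lysosomal genes (median 62.2 FPKM) and the actin cytoskeleton (median 100.3 FPKM) lie to the right, cytokines (median 0.203 FPKM) and proton sensing genes (median 1.02 FPKM) to the left. The median of all protein-coding genes, not drawn, was 0.243 FPKM.

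No transcription factor was among the 100 highest genes. Of the 1469 genes to which the authors' deposited table gives a transcription factor family, 636 (43.3%) reached 1 FPKM, close to the 43.0% of all protein-coding genes, and 365 had 0 counts. Among the highest were Ybx1 (128 FPKM), PU.1 (Spi1, 122 FPKM), Atf4 (119 FPKM), Cebpa (114 FPKM), Litaf (106 FPKM), Atf3 (103 FPKM), the oxidative stress factor Nfe2l2 (101 FPKM), Junb (84.6 FPKM) and Cebpb (80.9 FPKM). PU.1, which macrophages need to form at all, had 114, 126 and 125 FPKM. Junb and Cebpb are each overlapped by another gene on the opposite strand (Prdx2 and Tmem189).

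The families differed in how many members were expressed. Of 48 bZIP factors 39 reached 1 FPKM, of 9 interferon regulatory factors 8, of 26 ETS factors 16 and of 576 C2H2 zinc finger factors 281. Of 232 homeobox factors 19 reached 1 FPKM and 145 had 0 counts, and of 9 PAX factors none did, the highest being Pax5 at 0.562 FPKM. None of the 24 lineage factors of other cells reached 1 FPKM, and 16 had 0 counts. Of 45 macrophage transcription factors 44 reached 1 FPKM.

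Most immediate-early genes, known for a fast and short response to stimuli, were over 1 FPKM. Of 24 such genes 22 reached 1 FPKM, with a median of 17.0 FPKM. Atf3, Junb, Klf6 (70.3 FPKM), Egr2 (55.3 FPKM) and Jun (44.0 FPKM) were the highest, while Fos (6.29, 7.33 and 6.61 FPKM) and Egr1 (4.88, 6.02 and 6.14 FPKM) were lower and Fosb averaged 0.129 FPKM. Genes of classical and alternative activation were uneven. The NADPH oxidase subunits Cyba (684 FPKM) and Cybb led that list, arginase 1 (Arg1) averaged 16.5 ± 2.24 FPKM, cyclooxygenase 2 (Ptgs2) 0.518 FPKM, and inducible nitric oxide synthase (Nos2) had 0, 0.0309 and 0.0163 FPKM.

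Cell cycle genes were mixed in level. Of 29 cell cycle genes 15 reached 1 FPKM, with a median of 1.28 FPKM. The replication clamp Pcna averaged 75.6 FPKM and the cell cycle inhibitor p21 (Cdkn1a) 46.6 FPKM. Cdk4 averaged 33.5 FPKM, Mcm3 8.16 FPKM, the proliferation marker Mki67 2.33 FPKM and the mitotic topoisomerase Top2a 0.624 FPKM.

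Genes for ribosomal proteins were high almost throughout. Of 83 genes for the cytosolic ribosome 79 reached 1 FPKM and 55 reached 100 FPKM, with a median of 128 FPKM. The 4 below 1 FPKM were Rpl10l with 0 counts, Rpl3l (0.0205 FPKM), Rpl39l (0.712 FPKM) and Rpl24 (0.901 FPKM). The first 3 are known as tissue-restricted relatives, whereas Rpl24 belongs to every ribosome, and 51.8% of its 50-base words also occur in transcripts of other genes. In this family the 6 genes with over 50% shared words had a median of 237 FPKM and the other 77 one of 128 FPKM. Rps3a1, for example, had 582 FPKM with 71.0% shared words and Rpl36 454 FPKM with 81.1%. Rps10, at 1.04 FPKM with 22.6% shared words, was low as well, while its copy Rps10-ps2 averaged 141 FPKM. A set of 946 protein-coding genes at or over 1 FPKM, taken evenly from all such genes, went the other way. Its 14 genes with over 50% shared words had a median of 3.01 FPKM and the other 932 one of 7.05 FPKM. The part of shared sequence in the levels of ribosomal genes was not tested. Of 78 mitochondrial ribosomal protein genes 77 reached 1 FPKM, and of 39 proteasome genes 37 did. The mitochondrial ribosomal genes had a median of 7.89 FPKM, below that of the cytosolic ones.

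Whole families of other organs were silent. Of 1093 olfactory receptor genes 1040 had 0 counts and none reached 1 FPKM, the highest being Olfr111 at 0.659 FPKM. Of 207 vomeronasal receptors of type 1, 206 had 0 counts, as had all 53 keratin-associated protein genes and 38 of 42 beta-defensins. None of 57 clustered protocadherins and none of 20 connexins reached 1 FPKM. Single members stood out in otherwise silent families. Krt80 averaged 15.9 ± 0.227 FPKM as the only one of 49 keratins over 1 FPKM, and Hoxb4 averaged 2.59 ± 0.0777 FPKM as the only one of 40 Hox genes. Of 37 genes restricted to other tissues only Mbp, which besides myelin basic protein also encodes the Golli transcripts of blood cells, reached 1 FPKM, with 5.75, 5.60 and 5.64 FPKM.

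The 13 protein genes of the mitochondrial genome, which is transcribed as long precursors, ranged from 1.94 to 2560.0 FPKM. They held 2.58% of all FPKM. The subunits mt-Co1, mt-Nd1 and mt-Cytb had 2560.0, 1053 and 1001 FPKM. In contrast mt-Co2 had 29.1, 32.2 and 30.5 FPKM, mt-Co3 13.1, 15.6 and 20.3 FPKM and mt-Atp6 17.5, 17.3 and 13.4 FPKM. The proteins of mt-Co2 and mt-Co3 are partners of that of mt-Co1 in cytochrome c oxidase. For 5 of the 6 lowest genes nearly all 50-base words occur elsewhere in the annotated transcripts. Of the words of mt-Co2, mt-Co3 and mt-Atp6, 100%, 99.9% and 99.5% are found in transcripts of other genes, as are 98.8% for mt-Nd4l (16.8 FPKM) and 98.0% for mt-Nd3 (4.89 FPKM). For mt-Nd1, mt-Cytb and mt-Nd6 (514 FPKM) it is 0, for mt-Nd2 (598 FPKM) 8.19% and for mt-Nd5 (552 FPKM) 7.61%. The genes in between were mt-Co1 with 51.1% and mt-Nd4 (483 FPKM) with 62.2%. The exception was mt-Atp8, with 1.94 FPKM and 0% shared words, which overlaps mt-Atp6. Only annotated transcripts were searched, so a copy outside them would not be seen. The part of shared sequence in these levels was not tested.

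**Figure D5:**
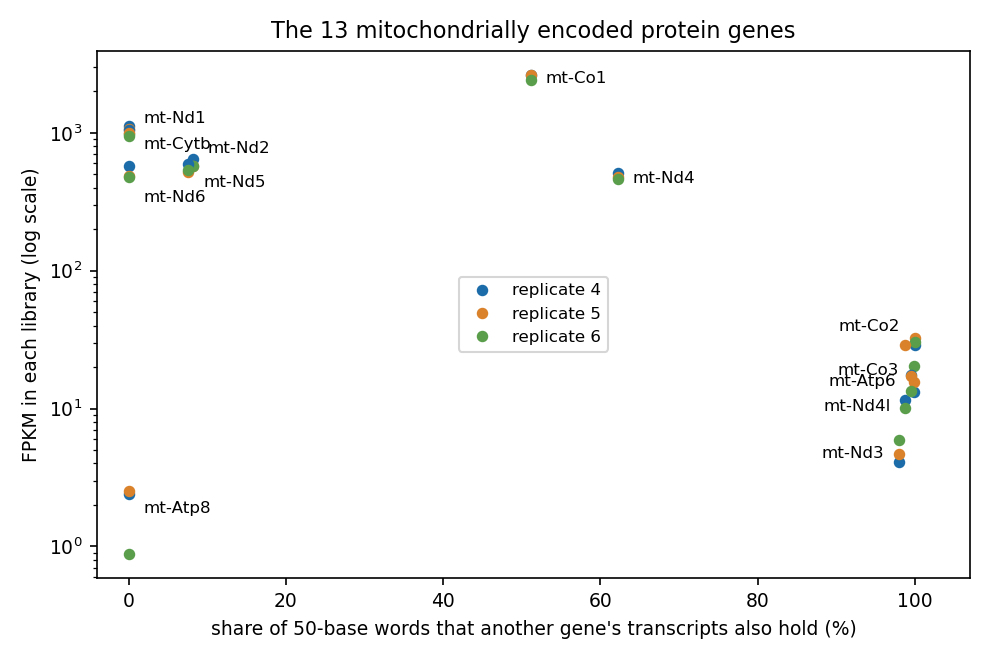
FPKM in each library (vertical axis, log scale) of the 13 mitochondrially encoded protein genes against the share of their 50-base words that another gene's transcripts also hold (horizontal axis, percent). The 5 genes at 98.0% and above lie between 4.89 and 30.6 FPKM, and mt-Atp8 at 1.94 FPKM is the low gene with 0%.

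By class of transcript, protein-coding genes held 98.4 ± 0.0505% of the counts and 95.5 ± 0.102% of the FPKM. Processed pseudogenes came next, with 0.431% of the counts but 2.36% of the FPKM over 9497 genes, of which 456 reached 1 FPKM. Their highest members were Gm9794 (343 FPKM), Rpl17-ps10 (241, 257 and 146 FPKM) and Gm9800 (190.3 FPKM). Of 5559 long intergenic noncoding RNA genes 134 reached 1 FPKM. The nuclear RNA Malat1 had 99.4, 75.6 and 91.9 FPKM, Neat1, which builds paraspeckles, had 71.4, 59.5 and 70.9 FPKM, and 2900097C17Rik averaged 39.9 FPKM. Malat1 and Neat1 were both lowest in replicate 5.

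Levels were close between the libraries for nearly every well-counted gene. Among 10135 genes with a mean count of at least 100, the median coefficient of variation of FPKM was 4.43%, beside 3.37% from the counting of reads alone, and 115 genes (1.13%) exceeded 20%. Of these 115, 37 were highest in replicate 4, 28 in replicate 5 and 50 in replicate 6, while 56 were lowest in replicate 4, 30 in replicate 5 and 29 in replicate 6. The 10 most variable genes were Srp54b (3.58, 1.19 and 0.487 FPKM), mt-Nd4l (11.6, 28.7 and 10.1 FPKM), Gm12191 (178, 43.3 and 170.5 FPKM), Rpl30-ps10, Sumo2 (4.47, 9.22 and 14.9 FPKM), 1700047I17Rik2, Gm10123 (75.4, 196 and 245 FPKM), Ccnd2, Fpr2 and Dynlt1c. Gm12191, Rpl30-ps10 and Gm10123 are annotated as processed pseudogenes, and 89.4% of the words of Srp54b are shared. Fpr2, a receptor for formylated peptides, had 2.84, 5.45 and 2.50 FPKM and the cyclin Ccnd2 0.199, 0.370 and 0.539 FPKM.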

How the data were processed

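The authors deposited 1 table for the whole series with raw counts per gene, FPKM and gene length in bases. Per the submitters' processing notes, CASAVA 1.8, HISAT2 2.0.5, featureCounts 1.5.0-p3 and the mm10 build were used, with no role stated. No source used here gives the strand setting, the annotation or the treatment of reads with several matches. In the 3 libraries each deposited FPKM equals the count over length and over 1 constant per library, which is 1.23, 1.22 and 1.24 times the library total, so the authors' scale was not the sum of the deposited counts, and what it was is not stated. The FPKM of a library sum to 262606, 269189 and 263241. From these values Python 3.11.15 with numpy 2.4.6 and pandas 2.3.3 took the mean and SD of the 3 libraries, ranks, shares, ratios within a library and counts of genes per level. Figures were drawn with matplotlib 3.10.9. There is 1 group, so no test was made. For some of the genes with 0 counts, the FPKM of 3 counts over the 3 libraries is given as a limit.

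The lists, families and members were chosen with earlier results of these data known. Named were the 25 highest genes of at least 200 bases, the 4 markers, the 5 highest members and the members without counts of each list, the 3 highest of each larger class of transcript or family, the 10 highest transcription factors and the 10 genes with the largest coefficient of variation at a mean count of at least 100. Other genes named, and the promoters shown, were chosen after their values were seen. Of 856 list symbols 856 were found. For 203 gene IDs that share a symbol with another ID, the ID with most counts was used. Shared sequence was measured as the share of a gene's distinct 50-base words, over its transcripts in GENCODE M21, that transcripts of another gene hold on either strand, a description made after the data were seen. Of 199 named genes 16 are overlapped by a gene with at least 10% of their count. Promoters came from RefSeq (GRCm38.p6). The spread measures were checked on simulated counts. A few items covered by these rules are not reported here.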

Additional observations from a re-analysis of the deposited data

How the results depend on the processing

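No result reversed. With TPM computed from the counts and lengths, every level was higher by a nearly fixed factor (3.77 to 3.78 for the 25 highest genes), so 13584 genes reached 1 (10623 in FPKM), 8221 reached 10, 1484 reached 100 and 112 reached 1000. With counts scaled to the library total (CPM) and no division by length, the 10 highest genes held 11.9% and the 100 highest 26.6%, protein-coding genes 98.4% and mitochondrially encoded genes 1.11% of the summed level, and 14 of the 25 highest genes stayed among them. Without mitochondrially encoded genes the 10 highest held 21.0%, the 100 highest 38.4% and protein-coding genes 95.7%. Among protein-coding genes alone these were 21.8% and 40.9%, with 2.71% for mitochondrially encoded genes. Genes with at least 10 counts in each library gave protein-coding shares of 98.5% of counts and 95.9% of level. Without genes under 200 bases, protein-coding genes held 96.1% and mitochondrially encoded genes 2.67% of the level. A minimum mean count of 20 gave 1069 genes with a coefficient of variation over 20% and a median of 5.35%, and a minimum of 500 gave 10 genes and 3.58%. Leaving out each replicate in turn gave 10609 to 10624 genes at or over 1 FPKM. All 11 values over all genes stayed within their bounds, a ratio for gene numbers and the SD for shares. Of 189 named gene levels, none moved beyond its SD with the median of the libraries or without a replicate. With 3 libraries such a median or mean cannot lie beyond the SD of the same values. That outcome was thus fixed in advance, and that of the shares nearly so, and neither measures robustness. Of the 189 levels, 170 were higher with scaling by the library total, and 92 were lower when the level had to be reached in each library. Counts of list members at or over 1 moved for 6 of 37 lists with TPM (cell cycle genes to 27) and for 2 with scaling by the library total. That of the erythroid and platelet list was 2 without replicate 4 or 6.

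Level bands, lists and single levels have no value in CPM, nor has the mitochondrial share without mitochondrial genes. No paired analysis was possible because there is 1 group and no comparison. The counts set the limit for low genes, and how far reads with several matches bear on genes with near-identical copies was not tested.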

Other observations

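Transcripts of the sex chromosomes were read as a check that no list covered, and these genes were chosen after their values were seen. The Y-linked Ddx3y had 14.2, 13.4 and 12.8 FPKM and Eif2s3y 11.2, 10.1 and 9.40 FPKM in replicates 4, 5 and 6. Xist, the RNA that coats the inactive X chromosome of females, had 0 counts in all 3 libraries, which allows at most 0.00191 FPKM. The 3 libraries were alike in this. Of 1570 Y-linked genes, 6 reached 1 FPKM.

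Il4, a cytokine known from T helper cells, basophils and mast cells, had 7.45, 6.65 and 6.40 FPKM. In the same libraries 4 of 14 genes of mast cells, eosinophils and basophils reached 1 FPKM, with a median of 0.289 FPKM. Of these 14, Tpsb2, Cma1 and Cpa3 averaged 7.13, 4.06 and 3.55 FPKM, while Mcpt4, Fcer1a and Kit averaged 0.429, 0.278 and 0.219 FPKM. Mcpt8 of basophils had 0 counts. Of 20 T and NK cell genes 2 reached 1 FPKM, and Cd3e averaged 0.0203 FPKM. The source of Il4 was not tested. None of the 50-base words of Il4 occurs in transcripts of another gene. The osteopontin gene Spp1 had 169, 229 and 205 FPKM. The imprinted noncoding RNA genes H19 and Meg3 had 0 counts.

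Rpl17 had 76.6, 87.9 and 157 FPKM, while its copy Rpl17-ps10 had 241, 257 and 146 FPKM, so that replicate 6 was the highest library for the gene and the lowest for the copy. The cause was not tested. Among the 40 genes of at least 100 counts that varied most, the genes Pax5, Spib, Cd79a, Cd79b and Blk, all known from B cells, were highest in replicate 6, the library with the highest summed level of B cell markers. Cd79a and Cd79b count in that sum themselves, so this agreement is partly built in.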
